A study of Mus musculus with 2 samples.

Results

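The collagen chains of mouse hepatocyte preparations were compared between 1 library from oil-injected mice and 1 library from CCl4-injected mice. The members are the genes whose symbol is Col followed by a type number, the letter a and a chain number, with 1 transcript kept for each gene, the one with the highest mean RPKM (reads per kilobase of transcript, scaled to the library's total). They came to 43 of the 20317 genes of the deposited mRNA table. Col12a1, a further collagen gene of the RefSeq annotation, had no matched transcript and was not analysed here. Both libraries were made from total RNA of primary hepatocytes of wild-type male C57BL/6J mice, 5 weeks old per the methods. To obtain these cells, the liver was digested by perfusion with the enzymes pronase and collagenase, and a density gradient then separated the hepatocytes. The CCl4 group received a 20% CCl4 solution in mineral oil into the peritoneum, 2.5 ml CCl4 per kilogram and 2 injections per week, and the oil group received oil by the same route. The labels give 8 weeks of injection and the methods give 4. How many mice contributed to a library is not given in the sources used here. With 1 library per group no difference has a replicate check, and no p-value is given.

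Collagens are secreted proteins whose chains repeat glycine at regular steps and wind into a triple helix. The fibrillar chains build the load-bearing fibrils of the interstitial matrix, type IV chains form the sheet of basement membranes, and the FACIT chains (fibril-associated collagens with interrupted triple helices) sit on the surface of fibrils. In the injured liver, fibrillar collagen is mainly made by hepatic stellate cells that have turned into myofibroblasts, whereas hepatocytes are not regarded as the main source. The remaining chains include the beaded filaments of type VI, the multiplexins Col15a1 and Col18a1 of vessel and epithelial basement membranes, and membrane-spanning collagens.

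The mRNA table lists every value under 1 RPKM as 0. The steps between RPKM values of short genes gave library totals of 57992559 reads for oil and 64655553 for CCl4. Of all genes, 12012 were listed above 0 in at least 1 library. For each change, 1 RPKM was added to both values before the log2 ratio of CCl4 to oil was taken, and a gene was called when this log2 fold change reached 1 in either direction. By that rule the CCl4 library had 2239 genes higher and 670 lower. The counts were 1473 and 1006 after scaling to the median mRNA, in which the CCl4 values were multiplied by a log2 factor of -0.30. Among genes listed above 0 in both, the median log2 ratio was 0.30 toward CCl4, and the collagen values below include that shift unless stated otherwise. Folds are plain ratios of RPKM. The interval after a fold is a 95% exact Clopper-Pearson interval from a lower bound of the reads and covers counting error only.

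Of the 43 collagen genes, 22 were listed above 0 in at least 1 library, 16 in both and 6 in the CCl4 library alone. The other 21 were at 0 in both. Of the 16 chains listed in both libraries, 11 were called higher, against 10.1% of the 10689 genes listed in both. With the chains listed only in the CCl4 library the count was 17 of 22, against 18.6% of all 12012 genes called higher. No chain was called lower, beside 5.58% of all genes. After scaling to the median mRNA 1 chain, Col18a1, was called lower, beside 1006 of all 12012 genes. A gene listed at 0 in oil and at any value in CCl4 passes this rule by construction. When a listed 0 was taken as 1 RPKM, an alternative added after seeing the data, 13 chains were higher, and Col4a6, Col6a5, Col6a6 and Col8a2 no longer passed. The share of all genes called under this alternative is not given here, so the shares above are no like measure for the 13. The summed level of all collagen chains was 194.2 RPKM in oil and 1016 RPKM in CCl4, which is 5.23-fold higher. Beside this, the summed markers of hepatic stellate cells were 7.09-fold higher and those of hepatocytes went from 17740 to 10420 RPKM. Their part in the collagen levels was not tested, and in bulk RNA more cells of a type and more RNA per cell cannot be told apart.

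**Figure D1:**
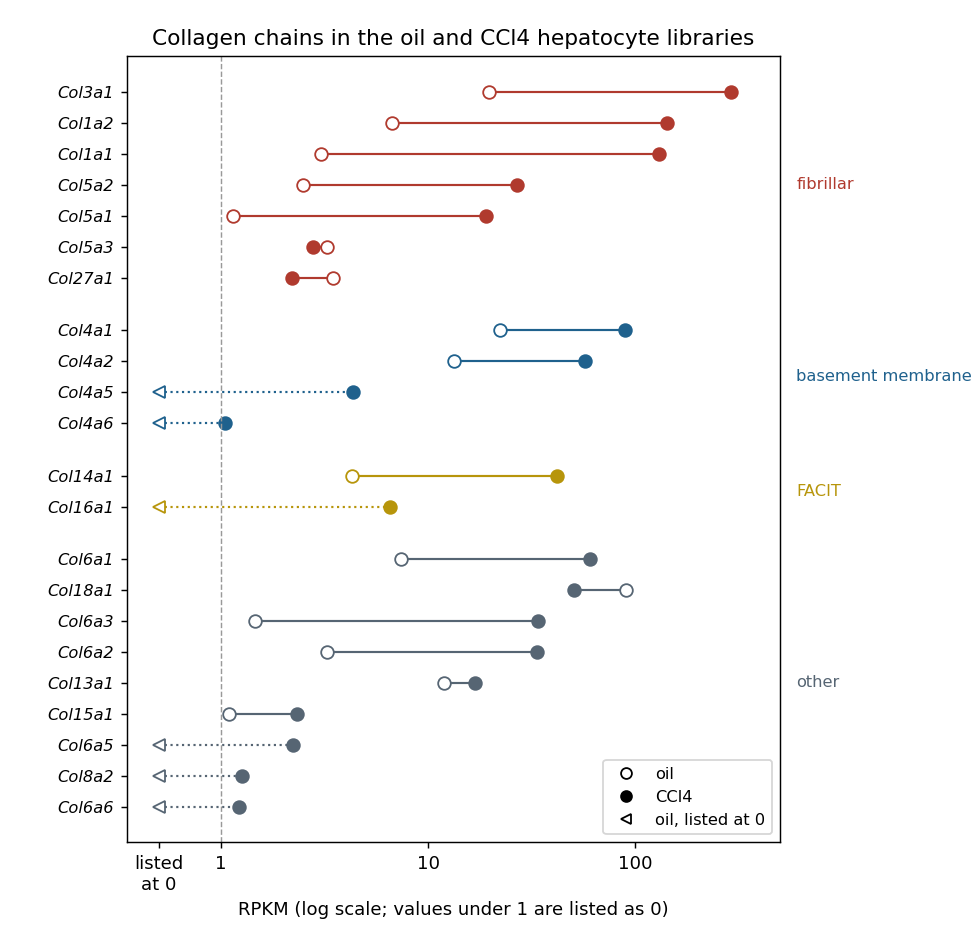
RPKM (log axis) of the 22 collagen chains listed in at least 1 library, grouped by class, with open circles for the oil library, filled circles for the CCl4 library and open triangles where the oil library is listed at 0. Col3a1 reached the highest level, 290.1 RPKM in CCl4, and 3 chains, Col5a3, Col27a1 and Col18a1, had the lower value in CCl4.

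The fibrillar class changed most in total, from 39.7 to 613.1 RPKM, 15.5-fold. Of its 11 genes, 7 were listed, all of them in both libraries, and 5 were called higher. The remaining 4, Col2a1, Col11a1, Col11a2 and Col24a1, were listed at 0 in both, and the first 3 of these are best known from cartilage. The median log2 fold change of the 7 listed chains was 3.23, against a median of 0.31 over all genes. Less the shift of the median gene the 3.23 became 2.92. After scaling to the median mRNA the fibrillar median was 2.94 and that of all genes 0.06.

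Type I collagen, the main fibril of scar tissue, is made of more α1 chains (Col1a1) than α2 chains (Col1a2). Col1a1 (chr11:94936224-94953042 in GRCm38, the mm10 build) was at 3.02 RPKM in oil and 130.5 RPKM in CCl4. This was 43.2-fold higher (interval 40.2 to 46.5) with a log2 fold change of 5.03, the largest of the chains listed in both libraries. With 0.1 RPKM added in place of 1 it was 5.39, below Col16a1 (6.05) and Col4a5 (5.48), which are listed at 0 in oil and have no fold of their own. Col1a2 (chr6:4505618-4541543) was at 6.69 RPKM in oil and 141.8 RPKM in CCl4, 21.2-fold higher (19.8 to 22.7). The intervals of both folds lie apart. The ratio of Col1a1 to Col1a2 was 0.45 in oil and 0.92 in CCl4, so that the 2 mRNAs were near the same level per length only in the CCl4 library.

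Type III collagen, a homotrimer of Col3a1 that forms fine reticular fibers, had the highest level of any collagen in the CCl4 library. Col3a1 (chr1:45311538-45349706) was at 19.6 RPKM in oil and 290.1 RPKM in CCl4, 14.8-fold higher (14.2 to 15.5), and its rank among the 20317 genes went from 2081 to 131. In oil its level was 6.48 times that of Col1a1, and in CCl4 2.22 times. Together Col1a1, Col1a2 and Col3a1 made up 15.1% of the summed collagen RPKM in oil and 55.4% in CCl4.

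Type V chains co-assemble with type I and help to start its fibrils. Col5a1 was at 1.14 RPKM in oil and 19.0 RPKM in CCl4, 16.7-fold higher (14.9 to 18.8). Col5a2 was at 2.49 and 26.8 RPKM, 10.7-fold higher (9.73 to 11.8). Col5a2 (chr1:45374331-45503282) is the neighbor of Col3a1, with 24.6 kb between the genes. The third chain of this type behaved otherwise, since Col5a3 was at 3.26 RPKM in oil and 2.77 RPKM in CCl4, a fold of 0.85 (0.78 to 0.92), so its ratio to Col5a1 went from 2.86 to 0.15. Col27a1, a fibrillar chain known from cartilage, was at 3.49 and 2.20 RPKM, 1.59-fold lower (1.47 to 1.72). Neither Col5a3 nor Col27a1 passed the rule for a call, and both lay below the median of all genes.

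The 250 bases before the annotated start of the chains below are shown because these members span the response, from type I, III and VI chains that were higher in the CCl4 library to Col18a1, the most abundant chain of the oil library. They were chosen after their values were seen and are RefSeq sequences in GRCm38.p6, 5′ to 3′ on the gene's own strand. The windows are chr6:4505368-4505617 for Col1a2 and chr1:45311288-45311537 for Col3a1 on the plus strand, and chr10:76726045-76726294 for Col6a1 and chr10:77166531-77166780 for the upstream start of Col18a1 on the minus strand. None of these windows overlaps an annotated gene. Capitals mark, on either strand, the letters of the CCAAT box (CCAAT), of a TATA box (TATAAA), of the GC box that SP1 can bind (GGGCGG) and of a sequence that SMAD proteins can bind (CAGACA).
Col1a2: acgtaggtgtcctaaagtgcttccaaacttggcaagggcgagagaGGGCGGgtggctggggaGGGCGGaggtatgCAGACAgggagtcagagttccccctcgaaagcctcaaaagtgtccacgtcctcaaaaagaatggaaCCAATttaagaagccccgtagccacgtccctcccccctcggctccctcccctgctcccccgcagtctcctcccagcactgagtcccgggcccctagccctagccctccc
Col3a1: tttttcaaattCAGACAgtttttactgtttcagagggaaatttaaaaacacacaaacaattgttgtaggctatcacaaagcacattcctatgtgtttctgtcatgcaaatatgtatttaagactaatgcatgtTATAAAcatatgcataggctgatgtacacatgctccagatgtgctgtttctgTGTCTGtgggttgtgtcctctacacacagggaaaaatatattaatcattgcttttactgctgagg
Col6a1: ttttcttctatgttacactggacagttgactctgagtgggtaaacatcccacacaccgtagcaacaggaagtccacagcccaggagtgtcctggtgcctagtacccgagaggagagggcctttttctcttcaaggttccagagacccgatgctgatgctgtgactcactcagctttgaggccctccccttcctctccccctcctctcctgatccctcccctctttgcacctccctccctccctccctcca
Col18a1: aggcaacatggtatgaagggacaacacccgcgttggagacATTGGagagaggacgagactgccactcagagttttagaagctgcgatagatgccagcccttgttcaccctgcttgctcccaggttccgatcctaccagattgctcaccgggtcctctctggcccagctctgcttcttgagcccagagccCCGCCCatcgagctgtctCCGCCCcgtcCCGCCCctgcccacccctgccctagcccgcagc

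Col1a2 holds a CCAAT 109 bases before its start, a CAGACA at 175 and GGGCGG at 188 and 205. Col3a1 holds CAGACA at 239 and its reverse complement at 65, and a TATAAA at 117. It has no GGGCGG, and its GC content of 35.2% is the lowest of the collagen windows. Col6a1, at 56.0% GC, holds none of the motifs, which says only that these letters are not in this window. The Col18a1 window holds GGGCGG in reverse at 33, 43 and 61 and CCAAT in reverse at 210. The window of its second annotated start (chr10:77113706-77113955, inside the gene) has 57.6% GC and holds only CAGACA in reverse at 217, and the promoter table does not pair either start with a transcript. A promoter window was matched for 35 of the 43 collagen genes. The collagen windows had a median GC content of 59.0%, against 52.4% over all windows, and its part in the motif counts was not tested. GGGCGG was in the windows of 21 of these 35 genes, against 35.4% of all genes with a window, and it was in 10 of the 14 genes that were called higher and 8 of the 16 that were at 0 in both libraries. CAGACA was in 9 of the 35, against 19.3% of all genes, CCAAT in 13, against 37.5%, and TATAAA in 5, against 14.3%. CAGACA was in 3 of the 14 genes called higher and in 5 of the 16 at 0. A match of letters is a description of the window and not a binding site.

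**Figure D2:**
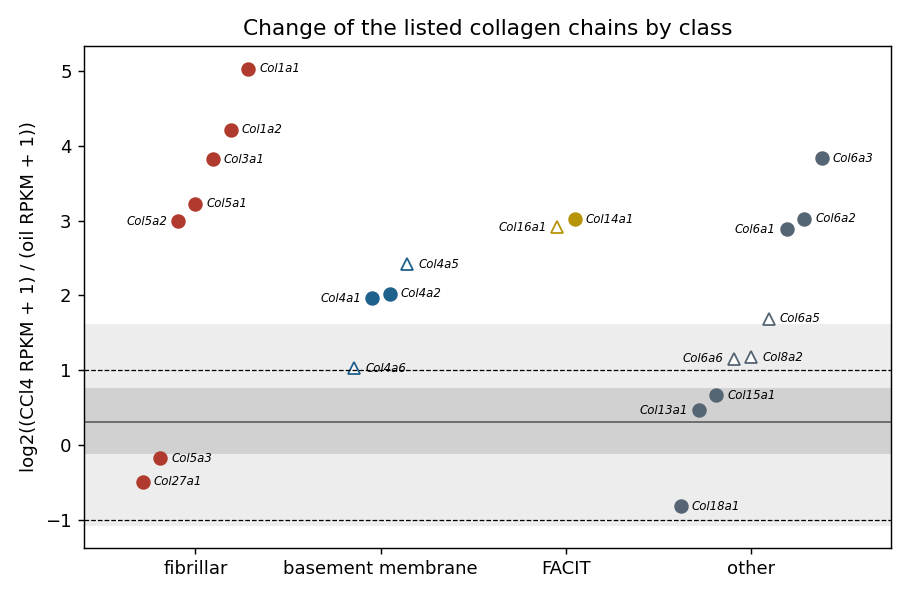
The log2 fold change of each listed chain (1 RPKM added to both values) by class, with circles for chains listed in both libraries and open triangles for chains listed at 0 in oil. The dark band spans the 25th to 75th percentile of all genes, the light band their 5th to 95th percentile, the grey line their median of 0.31, and the dashed lines the limits of a call. In the fibrillar class 5 chains lie above the light band, whose upper edge is at 1.61, and 2 lie below the grey line.

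In the basement membrane class, 4 of 6 genes were listed and 2 were listed in both libraries. Both of these, Col4a1 and Col4a2, were called higher. They encode the chains of the common type IV network found in vessel walls. Col4a1 (chr8:11198423-11312889) was at 22.1 RPKM in oil and 89.1 RPKM in CCl4, 4.03-fold higher (3.79 to 4.29). Col4a2 (chr8:11312805-11449287) was at 13.3 and 57.2 RPKM, 4.30-fold higher (4.16 to 4.45). The annotated spans of this head-to-head pair overlap by 85 bases, where reads of the partners cannot be told apart if strand was ignored, and the strand setting is not given in the sources used here. Their folds had overlapping intervals, and their ratio was 1.66 in oil and 1.56 in CCl4. Both folds lay below the interval of every type I, III, V and VI chain that was called higher and listed in both libraries.

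The other type IV chains were low. Col4a5 was listed at 0 in oil and at 4.36 RPKM in CCl4, and Col4a6, its neighbor on the X chromosome 1274 bases away, at 0 and 1.04 RPKM, just above the limit of listing. Col4a3 and Col4a4, which are part of the type IV network of the kidney glomerulus, were at 0 in both libraries. The summed level of the class went from 35.4 to 151.7 RPKM, 4.29-fold.

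Of the 8 FACIT genes, 2 were listed. Col14a1 (chr15:55307644-55520803), which binds to the surface of type I fibrils, was at 4.31 RPKM in oil and 42.0 RPKM in CCl4, 9.76-fold higher (9.07 to 10.5) with a log2 fold change of 3.02. Col16a1 was listed at 0 in oil and at 6.52 RPKM in CCl4, the highest value among the chains listed only in the CCl4 library. Even with 1 RPKM in place of the 0 it passed the rule. Col9a1, Col9a2, Col9a3, Col19a1, Col20a1 and Col22a1 were at 0 in both.

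The remaining class held both the type VI chains, which were higher in CCl4, and the chains that differed little or were lower. Type VI collagen forms beaded filaments around cells from Col6a1, Col6a2 and Col6a3. Col6a1 was at 7.36 RPKM in oil and 60.7 RPKM in CCl4, 8.24-fold higher (7.79 to 8.73). Col6a2 was at 3.25 and 33.6 RPKM, 10.4-fold higher (9.58 to 11.2). Col6a3 was at 1.46 and 34.0 RPKM, 23.3-fold higher (20.2 to 27.1), a larger fold than those of its partners by non-overlapping intervals. The ratio of Col6a1 to Col6a3 was 5.04 in oil and 1.78 in CCl4, and that of Col6a1 to Col6a2 was 2.27 and 1.80. The further type VI chains Col6a5 and Col6a6 were listed at 0 in oil and at 2.22 and 1.22 RPKM in CCl4, and Col6a4, in the same cluster on chromosome 9, was at 0 in both.

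Col18a1, whose C-terminal fragment is endostatin and which hepatocytes are known to express, was the most abundant collagen in oil. It was at 89.8 RPKM in oil and 50.5 RPKM in CCl4, 1.78-fold lower (1.72 to 1.84) with a log2 fold change of -0.82. This was short of a call, but after scaling to the median mRNA the value was -1.12, which is past the limit. Col18a1 made up 46.2% of the summed collagen RPKM in oil and 4.97% in CCl4. Without it the sum of all other chains went from 104.4 to 965.6 RPKM, 9.25-fold. Col18a1 (chr10:77052178-77166530) lies on the same chromosome as Col6a2 (chr10:76595756-76623630) and Col6a1 (chr10:76708792-76726044), 326.1 kb from the latter. These 3 collagen genes did not share a direction, and genes other than collagens between them were not examined.

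Col15a1, the other multiplexin, was at 1.09 RPKM in oil and 2.32 RPKM in CCl4, 2.13-fold higher (1.87 to 2.42), and with the added 1 RPKM its log2 fold change of 0.67 was short of a call. With 0.1 RPKM added it was 1.02 and passed. Col13a1, a membrane-spanning collagen of cell adhesions, was at 11.9 and 16.9 RPKM, 1.42-fold higher (1.14 to 1.77) with a log2 fold change of 0.47, beside a median of 0.31 over all genes. Col8a2, a network-forming chain of vessels and the cornea, was listed at 0 in oil and at 1.26 RPKM in CCl4. The membrane-spanning Col17a1, Col23a1 and Col25a1, the anchoring fibril chain Col7a1, the cartilage chain Col10a1, and Col8a1, Col26a1 and Col28a1 were at 0 in both libraries.

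**Figure D3:**
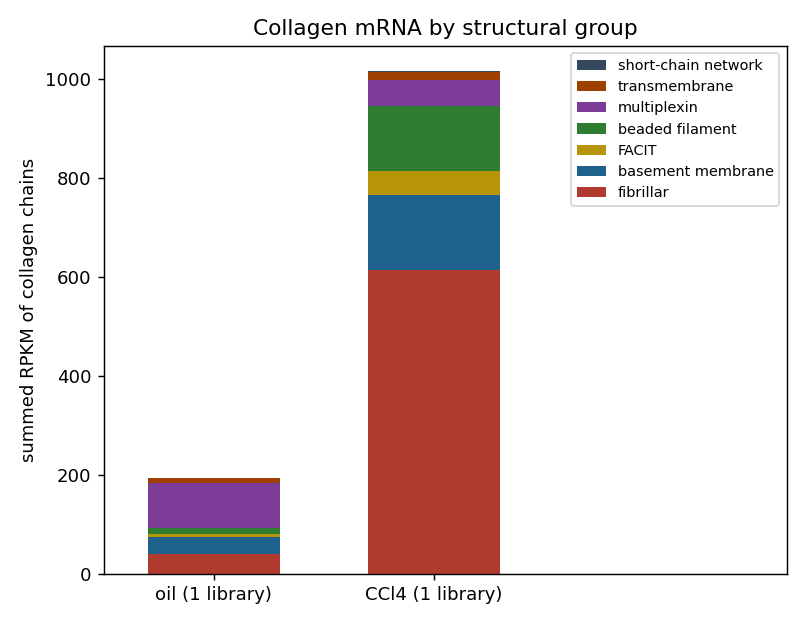
Summed RPKM of the collagen chains in each library, stacked by structural group. The sum is 194.2 in oil, where multiplexins hold 90.9, and 1016 in CCl4, where fibrillar chains hold 613.1, type IV chains 151.7 and type VI beaded filaments 131.8.

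The order of levels also differed between the libraries. In oil it ran from Col18a1 (89.8 RPKM) over Col4a1 (22.1), Col3a1 (19.6), Col4a2 (13.3) and Col13a1 (11.9) to Col6a1 (7.36) and Col1a2 (6.69). In CCl4 it ran from Col3a1 (290.1 RPKM) over Col1a2 (141.8), Col1a1 (130.5), Col4a1 (89.1) and Col6a1 (60.7) to Col4a2 (57.2) and Col18a1 (50.5). Fibrillar chains thus went from 20.4% to 60.3% of the summed collagen RPKM, type IV chains from 18.2% to 14.9%, FACIT chains from 2.22% to 4.78%, and the remaining class, which holds Col18a1 and the type VI chains, from 59.1% to 19.9%.

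Collagen chains are hydroxylated and folded in the endoplasmic reticulum before they are secreted. Of 18 genes of this machinery, 16 were listed, 6 were called higher and none lower, beside 18.6% and 5.58% of all genes. Of the 13 listed in both libraries 3 were higher, beside 10.1% of all such genes. Serpinh1, the collagen-specific chaperone HSP47, was at 39.3 RPKM in oil and 129.5 RPKM in CCl4, 3.29-fold higher. P4hb, the shared subunit of prolyl 4-hydroxylase and a general disulfide isomerase, was at 322.7 and 233.0 RPKM, and the prolyl isomerase Ppib at 166.9 and 174.6 RPKM, neither past the limit. The catalytic subunits P4ha1 (9.04 and 12.9 RPKM) and P4ha2 (3.30 and 2.85 RPKM) were not called either. The called genes were Crtap, P3h2, P3h3, Plod2, Fkbp10 and Serpinh1, of which P3h2, Plod2 and Fkbp10 were listed at 0 in oil.

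Of 14 genes that trim, crosslink or bind the secreted chains, 12 were listed, 8 were called higher and none lower, beside the same 18.6% and 5.58%. Lox and Adamts14 were at 0 in oil and pass by construction, and 6 of the 10 listed in both libraries were higher, beside 10.1%. Sparc, a collagen-binding matricellular protein, was at 51.1 RPKM in oil and 314.6 RPKM in CCl4, 6.16-fold higher. Fn1, fibronectin, which hepatocytes secrete into plasma, was at 113.3 and 94.2 RPKM, and Pcolce, which enhances removal of the C-terminal propeptide, at 6.40 and 27.6 RPKM. Adamts2, which removes the N-terminal propeptide, was at 1.01 and 11.5 RPKM, 11.4-fold higher, whereas Bmp1, which cuts off the C-terminal one, was at 16.6 and 15.0 RPKM. The crosslinking enzyme Lox was listed at 0 in oil and at 3.90 RPKM in CCl4. Of 10 collagen receptor genes, 9 were matched, 6 were listed and 4 were called higher, of which Ddr2 and Mrc2 were at 0 in oil. Of the 4 listed in both libraries 2 were higher, beside 10.1% of all such genes. These were Ddr1 (log2 fold change 1.04) and Itga1 (1.22), which passed the limit by less than the shift of 0.30 toward CCl4. Itgb1, the integrin β1 chain, was at 32.1 and 59.7 RPKM, short of a call, and its collagen-binding partner Itga1 was at 5.89 and 15.1 RPKM, 2.56-fold higher. Lair1, an inhibitory collagen receptor of leukocytes, was at 5.10 and 10.5 RPKM, also short of a call. Ddr2, a collagen-activated receptor kinase of mesenchymal cells, was listed at 0 in oil and at 3.53 RPKM in CCl4.

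Markers of the cell types that a hepatocyte preparation can hold differed in direction and in how many were called, beside the 18.6% of all genes called higher and 5.58% called lower. All 9 matched hepatocyte markers were listed in both libraries, with Alb (albumin) at 8656 RPKM in oil and 6476 RPKM in CCl4, and 5 of them were called lower. The markers of hepatic stellate cells, none of which is a collagen, were called higher in 10 of 10 genes, and their summed level went from 53.8 to 381.4 RPKM, 7.09-fold. Among them Lrat, which stores vitamin A as esters, was at 1.84 and 23.6 RPKM, and Pdgfrb, Ngfr, Hand2 and Lhx2 were listed at 0 in oil and pass by construction. The myofibroblast list was called higher in 9 of 10 genes, with Acta2 (smooth muscle actin) at 1.58 and 8.92 RPKM, and its sum went from 49.9 to 249.8 RPKM. In this list Lox, Thbs2, Tnc and Cthrc1, the last at only 1.14 RPKM in CCl4, were at 0 in oil, and 5 of the 6 genes listed in both libraries were higher, as were 6 of 6 in the stellate cell list, beside 10.1% of all such genes. Portal fibroblast markers were called higher in 4 of 6 listed genes with sums of 14.6 and 48.3 RPKM, with Mfap4 at 0 in oil and Gli1 at 0 in both. Of the 5 portal markers listed in both libraries 3 were higher, beside the same 10.1%. Kupffer cell and macrophage markers were called higher in 6 of 9 matched genes (sums of 1218 and 2507 RPKM) and sinusoidal endothelial markers in 2 of 10 (627.1 and 1086 RPKM). These counts include the shift of 0.30 toward CCl4. Adgre1 (log2 fold change 1.23), Cd5l (1.10), C1qa (1.13) and Csf1r (1.23) passed the limit by less than that shift. So did both called endothelial markers, Lyve1 (1.02) and Fcgr2b (1.03). In the macrophage list Clec4f, Vsig4 and Timd4 were not called, and Clec4f was at 282.6 RPKM in oil and 254.5 RPKM in CCl4. Cholangiocyte markers were called higher in 1 of 4 listed genes, Spp1, with Sox9, Cftr and Muc1 of this list at 0 in both. Their sum went from 50.9 to 170.2 RPKM, and without Spp1 from 13.4 to 25.1 RPKM, 1.87-fold. Mesothelial markers were called higher in 1 of 5 genes, Wt1, which was at 0 in oil (34.1 and 55.2 RPKM). Lox stands in both the crosslinking and the myofibroblast list, and Spp1 in the myofibroblast and the cholangiocyte list. Dcn (decorin), the most abundant stellate cell marker, was at 36.1 and 213.9 RPKM.

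**Figure D4:**
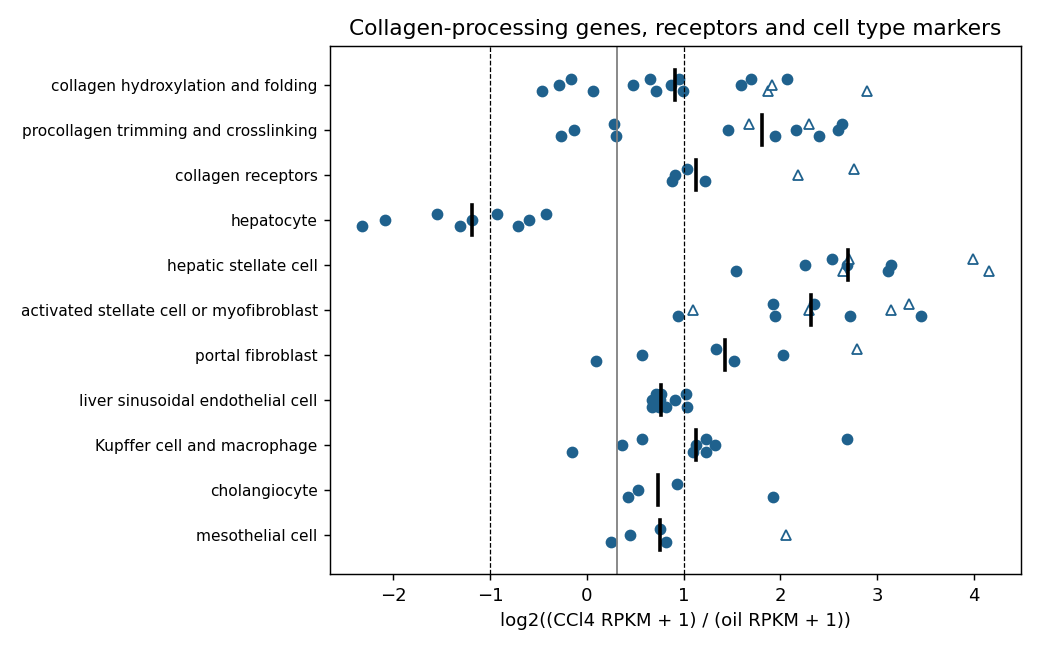
The log2 fold change (1 RPKM added to both values) of each listed gene of the collagen-processing, receptor and cell type marker lists, with circles for genes listed in both libraries, open triangles for genes at 0 in oil, black bars for list medians and the grey line for the median of all genes at 0.31. The stellate cell list has the highest median, 2.70, and the hepatocyte list the lowest, -1.19.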

How the data were processed

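Total RNA of primary hepatocytes was sequenced in 1 library from oil-injected and 1 from CCl4-injected mice. Per the submitters' processing notes, CASAVA 1.4 and TopHat2 were used on mm10. The counting program, annotation version and strand setting are not given in the sources used here. The authors deposited RPKM values per RefSeq transcript (27457 in the mRNA table), with every value under 1 RPKM listed as 0. Their own log2 changes, p-values and q-values, deposited beside the RPKM values, were not used here, so values under the listing limit were not restored.

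Symbols came from the RefSeq annotation of GRCm38.p6, in which 27049 of the 27457 transcripts were found. For each gene the transcript of highest mean RPKM was kept. Collagen classes follow textbook structure. The members and gene lists were chosen with earlier results of these data known. All members are named, and for the processing lists the 3 genes with the highest mean RPKM, with further members named by role after their values were seen. There is 1 library per group and so no test: a call needs a log2 fold change of 1 or more in size, after adding a pseudocount of 1 RPKM.

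The library totals were those at which RPKM times length gave whole reads, within 0.02 of a read, in 203 of 211 (oil) and 215 of 223 (CCl4) genes shorter than 400 bases of both annotated RPKM tables. For each member listed in both libraries, lengths of 200 to 30000 bases were tried, and the shortest with whole reads in oil and CCl4 alike set a lower bound of its reads. At this bound the members had at least 138 reads in each library. PCR copies are not independent molecules, so intervals cover counting error only. The calls and read bounds were tested on simulated data. Alternatives were other pseudocounts, scalings, thresholds, filters, transcript choice and class borders. Software was pandas 2.3.3, scipy 1.17.1, numpy 2.4.6 and matplotlib 3.10.9 under Python 3.11.15.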

Additional observations from a re-analysis of the deposited data

How the results depend on the processing

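No chain changed sign past a call under any alternative run. Of the 88 values of single chains under the other pseudocounts and scalings, the alternatives that act on every chain's value, 52 moved by more than the counting error set for them and 36 by less. The cause of a move was not tested except where fewer or lower values enter by construction. The main medians of log2 fold change were 3.23 (fibrillar), 1.995 (basement membrane), 2.96 (FACIT) and 1.18 (other). In the same order they were 3.88, 2.81, 4.65 and 3.33 with 0.1 RPKM added. With 0.5 RPKM added the fibrillar, FACIT and other medians were 3.57, 3.48 and 1.82. Scaling to the median mRNA gave 2.94, 1.70, 2.69 and 1.02, a log2 fold change of the summed collagens of 2.08 in place of 2.38, and 1 chain called lower (Col18a1) in place of 0, while Col4a6 (0.89) and Col6a6 (0.99) lost their calls. Under that scaling 15 chains were called higher, beside 12.3% of all genes. With the limit of a call raised to 2, 2 basement membrane and 3 other chains were higher, in place of 4 and 6. The share of all genes past that limit is not given here. Over chains listed in both libraries, 11 were higher in place of 17, made up of 2 basement membrane, 1 FACIT, 3 other and all 5 fibrillar ones, with a median of 1.78 for other chains and a fibrillar share in CCl4 of 61.3%. With no filter, where chains at 0 in both libraries enter, the medians were 0, 1.50, 0 and 0. Summing all transcripts of a gene, which counts shared reads more than once, gave 1.69 for other chains, 1.99 for the summed collagens, and fibrillar shares of 14.4% in oil and 55.9% in CCl4 in place of 20.4% and 60.3%. With Col15a1, Col18a1 and Col7a1 counted as basement membrane, that class had a median of 1.50 and the other class 1.69. With a listed 0 taken as 1 RPKM, which was added after seeing the data, the medians were 1.69 (basement membrane), 2.46 (FACIT) and 0.67 (other), with 3 other chains higher. The share of all genes called under this alternative is likewise not given here. Leaving out the 10 most abundant mRNAs of either library from the scaling took Col4a6 just below the limit, at 0.999. No paired analysis was possible because each group has 1 library. Levels under 1 RPKM are listed as 0, so 21 chains and the oil level of 6 more could not be compared.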

Other observations

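For 4 of the listed collagen genes more than 1 transcript was listed, and the transcripts of a gene, whose reads can be shared, differed little in their change. For Col18a1, NM_001109991 was at 89.8 RPKM in oil and 50.5 RPKM in CCl4 and NM_009929 at 80.3 and 45.4 RPKM, with log2 fold changes of -0.82 and -0.81. For Col6a3, NM_001243009 was at 1.46 and 34.0 RPKM and NM_001243008 at 1.34 and 30.2 RPKM, with log2 fold changes of 3.83 and 3.74. Both transcripts of Col4a5 were listed at 0 in oil and at 4.36 and 4.32 RPKM in CCl4, and both of Col6a6 at 0 and at 1.18 and 1.22 RPKM.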
